A study of Mus musculus with 21 samples.

Results

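Common lymphoid progenitors (CLPs) of mice lacking both Bach1 and Bach2 were compared with CLPs of wild-type (WT) mice on 6 single-colour Agilent arrays, 3 per genotype, of 21 arrays in the series. The arrays were chosen by their titles, which name bone-marrow CLPs and either WT or DD, the labels' short form for the compound Bach1/Bach2-deficient genotype. Sex, age, strain background and the design of the deleted alleles are not given in the labels. RNA of each sample was pooled from mice of 1 genotype. Marrow was partly depleted of lineage-positive cells with magnetic beads, stained for Sca-1, CD135 (Flt3), CD117 (Kit) and CD127 (Il7r) and sorted by flow cytometry. Replicates 1, 2 and 3 of both genotypes lay on slides 1, 2 and 3, so that each slide held 1 WT and 1 DD pool and differences were read within slides. Nothing in the labels says whether the 3 pools of a genotype were separate sorts, and p-values measure the spread between these samples.

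CLPs are marrow cells that normally give rise to B cells, T cells, natural killer cells and other innate lymphocytes, and have largely lost the capacity to form myeloid cells. Bach1 and Bach2 are basic leucine-zipper repressors that pair with small Maf proteins and bind Maf recognition elements, which overlap the sites of AP-1 and of the activator Nrf2. Bach1 is best known as the heme-regulated repressor of heme oxygenase and of oxidative-stress genes, and Bach2 as a factor of B-cell and T-cell identity. The comparison asks which genes of a lymphoid progenitor differ when both repressors are missing.

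Signals are given as log2 values relative to the 75th percentile of their array, so that 0 is the 75th percentile of the array, and a difference of 1 is 2-fold. Between 66.8% and 81.5% of spots on an array were well above background, and no spot was saturated. Of 55681 probes, 26407 carried a gene symbol after matching to RefSeq, and 41847 probes were well above background on at least 3 of the 6 arrays and were tested. Levels of different probes cannot be set against each other, since probes differ in how well they bind.

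The identity of the cells was read from their markers. All 10 CLP markers examined, namely Il7r, Flt3, Kit, Ly6a, Rag1, Rag2, Dntt, Ly6d, Cd34 and Ccr9, were well above background on all 6 arrays. Their summed signal ran from 320.3 to 457.1 times the 75th percentile in WT and from 452.8 to 476.3 times in DD, and the lowest sum was that of WT replicate 3. Of 6 lineage markers with a named probe, 5 were also above background on all arrays, at summed signals of 6.00 to 7.94 in WT and 6.52 to 9.75 in DD. Transcripts of other cell types varied between pools. S100a8, a neutrophil alarmin, stood at 2.20 in WT replicate 3 and 0.31 in DD replicate 2, and at or below -2.80 in the other 4 pools. Camp, a secondary-granule peptide, stood at 4.17 in WT replicate 3 and 4.02 in DD replicate 2, and between -4.52 and -1.07 elsewhere. Pf4, a platelet chemokine, reached 3.03 in DD replicate 1 and was at or below -0.64 in the other pools. Summed granulocyte markers ranged from 32.1 to 74.0 in WT and from 38.3 to 85.9 in DD. Fewer or more cells of a type and less or more RNA per cell cannot be told apart in such pools.

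**Figure D1:**
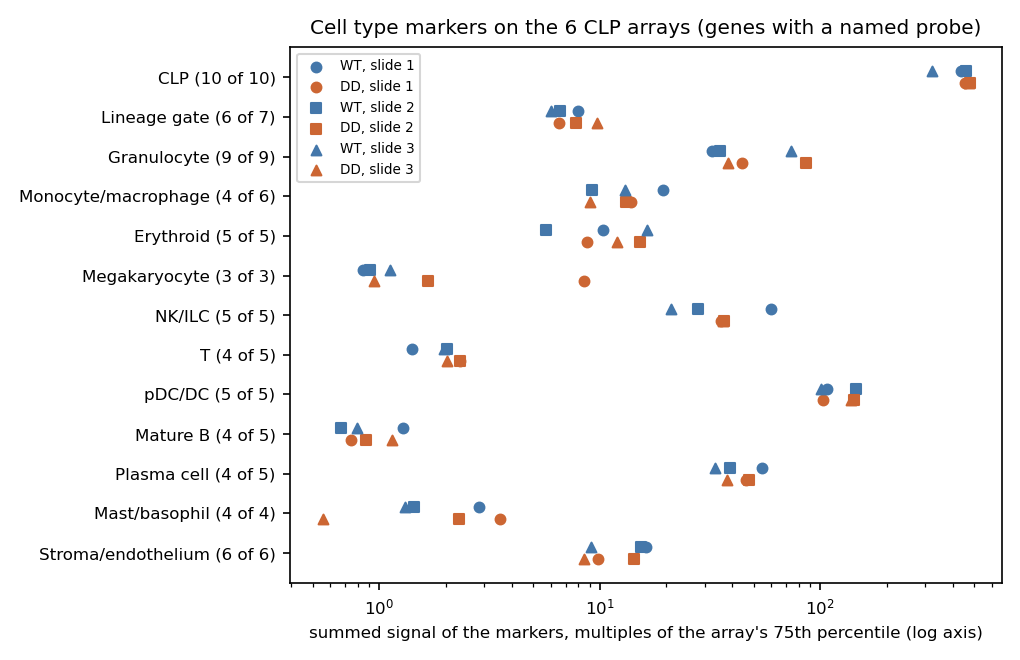
Summed signal of marker genes for 13 cell classes on the 6 CLP arrays, in multiples of the array's 75th percentile on a log axis, with 1 point per array (blue WT, orange DD, shape by slide). CLP markers lay between 320.3 and 476.3 on every array, and granulocyte markers were highest in WT replicate 3 and DD replicate 2.

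The targeted genes were read first. The brighter Bach2 probe stood at 3.46, 1.49 and 2.38 in the WT pools of slides 1 to 3 and at 1.17, 0.10 and -0.27 in the DD pools. The 3 DD values lay below the 3 WT values, with a mean difference of -2.11 ± 0.33 (SE, limma with slide as a block, n = 3 pairs), or 4.32-fold. The other Bach2 probe was above background on 1 of 6 arrays. The single Bach1 probe stood at 1.87, 1.96 and 2.17 in WT and at 2.41, 1.14 and 0.88 in DD, and the groups overlapped, with a difference of -0.52 ± 0.42. Where these probes lie relative to the deleted parts of the genes is not given in the sources used here, so a probe outside the deletion checks nothing. Among the 12 Bach, Nrf and small Maf factors, 3 had a higher mean in DD and 9 a lower one, while 53.7% of all 16499 genes measured had a higher one. On all slides 2 were higher and 5 lower, beside 18.01% and 14.98% of all genes. With a lower mean, 4 had an unadjusted p under 0.05 (limma with slide as a block), and with a higher one 0, beside 4.12% and 4.22% of all genes. Maf, a large Maf factor, stood at 0.74, 1.10 and 0.06 in WT and at -1.19, -0.92 and -2.07 in DD (-2.03 ± 0.21). Mafk, a small Maf partner of the Bach proteins, was lower on all 3 slides (-0.77 ± 0.24), and Nfe2l2, which encodes Nrf2, differed by -0.08 ± 0.22.

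No probe passed an adjusted p of 0.05 when 41847 probes were tested with the slide as a block (0.00% called, limma with Benjamini-Hochberg adjustment; lowest adjusted p 0.541), and 1625 probes had an unadjusted p under 0.05 with a higher mean in DD and 2104 with a lower one. This split moved with the scaling point: scaled to the array median in place of the 75th percentile, 2176 probes were higher and 1614 lower, and the median difference over all probes shifted from 0.00 to 0.07. Other ways of estimating the spread, some chosen after the data were seen, gave between 0 and 35 calls. With 1 probe per gene and no block, 1 of 16500 genes passed (0.00606%), Rspo1, at an adjusted p of 0.0285. With the spread shared with 6 arrays of multipotent progenitors (MPPs) carrying a Bach2 or control vector, 1 of 39600 probes passed (0.00253%). It was again Rspo1, at an adjusted p of 0.0284. The arrays of follicular B cells were dimmer than the CLP arrays. With the spread shared with 6 of them, of WT and Bach2KO cells, 35 of 29577 probes passed (0.118%), 16 higher and 19 lower in DD. Of those 35 probes, 16 had a gene symbol: Ly96, Adam8, Ly6a, Gclm, Otud7b and Mt1 were higher in DD, and St8sia6, Mylip, Snord123, Nos3, Tstd2, Rfx3, Kcnk10, Slc17a5, Gfpt1 and Bach2 were lower. Brighter probes of Tstd2, Gfpt1 and Slc17a5 gave -0.52 ± 0.39, -0.33 ± 0.31 and 0.16 ± 0.76. Rspo1 was not among the probes that could be tested with the follicular arrays.

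Below these tests the comparison is descriptive. On all 3 slides and by at least 2-fold in the mean, 907 probes were higher in DD (2.17% of probes tested) and 1442 were lower (3.45%). For counts over genes and lists, each of the 16499 genes with a measured probe was read by its brightest probe, while a leading gene is given by the probe with its smallest unadjusted p, which for Pgr, Emid1, Cacna1d, Mylip and Rfx3 is a dimmer one. Of the 16499 genes, 53.7% had a higher mean in DD, 18.01% were higher in DD on all 3 slides and 14.98% lower, 4.90% had 3 DD values above all WT values and 2.96% below them, and 4.22% had an unadjusted p under 0.05 with a higher mean in DD and 4.12% with a lower one. The median gene differed by 0.04. As a further yardstick, all 18 ribosomal protein genes had a higher mean in DD, 7 of them on all slides, with a median of 0.35 (-0.01, 0.12 and 0.87 on slides 1 to 3).

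**Figure D2:**
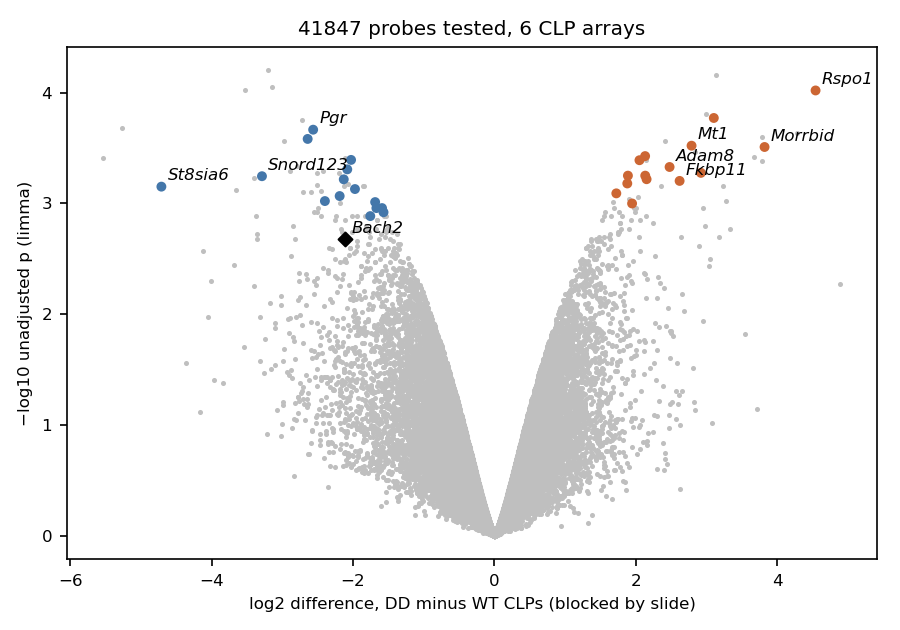
Log2 difference between DD and WT CLPs against the unadjusted limma p on a −log10 axis, for 41847 probes in grey, with the 15 leading genes in each direction in orange and blue and Bach2 as a black diamond. Rspo1 lies at 4.54 and Bach2 at -2.11.

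Among genes with a symbol the smallest unadjusted p was that of Rspo1, which encodes R-spondin 1, a secreted enhancer of Wnt signalling. It stood at -5.40, -5.47 and -5.75 in the WT pools and at -0.85, -1.62 and -0.53 in the DD pools. The DD values lay far above the WT values on each slide, and the difference of 4.54 ± 0.34 corresponds to 23.3-fold. Morrbid, a long noncoding RNA known for controlling the lifespan of short-lived myeloid cells, stood at -5.48, -6.25 and -5.28 in WT, where 2 of 3 pools were above background, and at -1.17, -2.00 and -2.38 in DD. Its difference was 3.82 ± 0.37. Regions with no gene name here differed in both directions. Both probes of the region chr2:128142035-128142481 (mm9, the build in the array headers) were higher in DD on all slides, by 3.67 ± 0.38 and 3.78 ± 0.40, and a probe of chr5:92556322-92558910 (mm9) by 3.78 ± 0.35. The Morrbid promoter lies on chr2 too, at chr2:128429302-128429601 of another build (GRCm38.p6), minus strand. The chr2 probes may therefore read the Morrbid transcript, which was not tested, and need not be a separate result. A probe of chr15:32167516-32174427 (mm9) was lower by -3.21 ± 0.22, with 1 DD pool above background and the smallest unadjusted p of all probes, and a probe of the nearly identical chr15:32167516-32174417 by -2.11 ± 0.22, with 2 DD pools above background.

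The other leading genes higher in DD have varied functions. Mt1, a metallothionein that binds zinc and copper, stood at -0.80, -0.04 and 0.02 in WT and at 1.64, 3.25 and 2.65 in DD (2.79 ± 0.27). Adam8, a membrane metalloprotease of myeloid cells, stood at -1.18, -2.13 and -1.97 in WT and at 1.54, 0.59 and 0.01 in DD (2.48 ± 0.27). Ly96, the MD-2 subunit that lets Toll-like receptor 4 bind endotoxin, stood at 0.88, 0.16 and 0.54 in WT and at 2.63, 2.25 and 2.33 in DD (1.88 ± 0.22). These 3 genes had no overlap between genotypes. Fkbp11, a prolyl isomerase of the endoplasmic reticulum that is abundant in secretory cells, was at -3.30, -2.81 and -3.52 in WT and at -1.25, -0.19 and -0.33 in DD (2.62 ± 0.30). Havcr2, which encodes the immune receptor Tim-3, was at 1.82, 1.17 and 1.18 in WT and at 3.76, 3.14 and 2.93 in DD (1.89 ± 0.21). Ifitm1, an interferon-induced membrane protein, was at 3.17, 3.72 and 3.28 in WT and at 5.04, 5.33 and 5.63 in DD (1.95 ± 0.25). The serine protease gene Tmprss4 differed by 2.15 ± 0.25 and the immune checkpoint ligand gene Cd276 by 2.05 ± 0.21, the latter with 2 of 3 WT pools above background. Sv2c (3.10 ± 0.26, 1 WT pool above background), Spag1 (2.13 ± 0.22), Defa27 (2.92 ± 0.32, 1 WT pool above background) and Serpina3f (1.72 ± 0.21) complete the 15 with Hao1. Hao1 was not well above background in any WT pool, and its DD mean was at least 2.37-fold higher than the detection limit there (adjusted p 0.541, limma with Benjamini-Hochberg). Defa27, Serpina3f and Ifitm1 belong to families of similar genes, and their probes may read relatives.

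The 15 leading genes lower in DD include receptors, regulators and enzymes. Pgr, the progesterone receptor, stood at -2.27, -0.71 and -0.81 in WT and at -4.86, -3.00 and -3.62 in DD (-2.56 ± 0.23). A second Pgr probe was lower too, by -1.95 ± 0.48. Cd163l1, a scavenger receptor related to CD163, stood at 0.19, -2.09 and -2.23 in WT and at -2.64, -4.94 and -4.47 in DD (-2.64 ± 0.25). St8sia6, a sialyltransferase, stood at -0.93, -2.51 and -2.94 in WT and at -4.11, -8.14 and -8.27 in DD, where 1 of 3 pools was above background (-4.71 ± 0.56, a size set in part by signal not well above background). In all 3 genes the DD values lay below the WT values. Snord123, a small nucleolar RNA, was lower by -3.29 ± 0.37 with 1 DD pool above background. Cdhr1, a cadherin of photoreceptors, was above background in no DD pool, and its WT mean was at least 2.32-fold above the limit (adjusted p 0.541). Nos3, the endothelial nitric oxide synthase, stood at -2.23, -0.54 and -2.19 in WT and at -3.74, -2.27 and -4.01 in DD (-1.69 ± 0.22), and a dimmer Nos3 probe overlapped between groups (-0.57 ± 0.61). Clec4f (-2.13 ± 0.24, 2 DD pools above background), Asprv1 (-1.67 ± 0.22) and Klk1b26 (-1.59 ± 0.21, 1 DD pool above background) did not overlap between groups. Emid1 (-1.57 ± 0.21) and Prkcz (-2.08 ± 0.23) were lower on every slide although the groups overlapped, and a brighter Emid1 probe gave -0.56 ± 0.26. Other probes of Prkcz (0.06 ± 0.51 and -0.71 ± 0.33), Cacna1d (0.18 ± 0.30 against -1.97 ± 0.24), Mylip (-0.47 ± 0.27 against -2.19 ± 0.27) and Rfx3 (-0.10 ± 0.36 and -1.19 ± 0.54 against -1.76 ± 0.24) gave smaller differences than the probe that led.

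**Figure D3:**
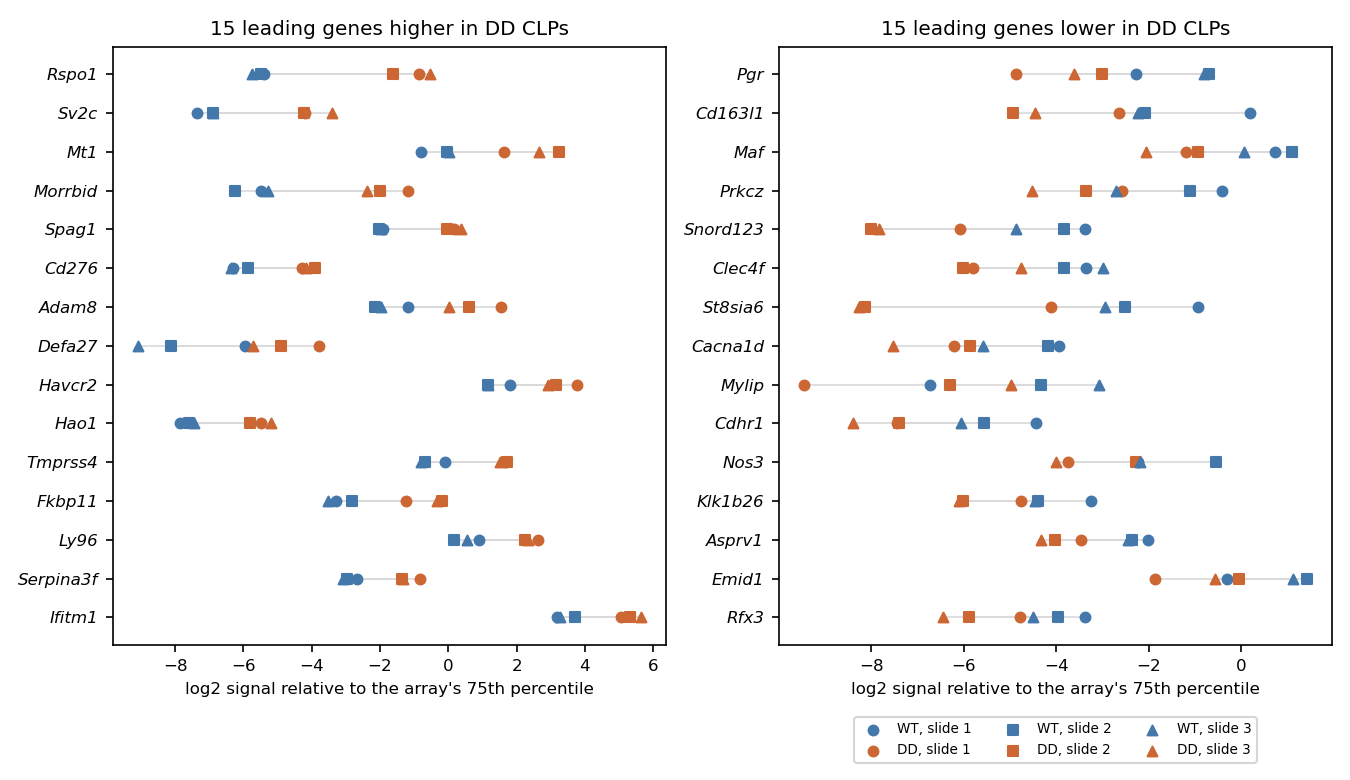
Scaled log2 signal on each array (0 is that array's 75th percentile) for the 15 leading genes higher (left) and lower (right) in DD CLPs, with 1 point per array (blue WT, orange DD, shape by slide). All 15 genes on the left have 3 DD values above 3 WT values, while Prkcz, Mylip and Emid1 on the right overlap between genotypes and separate only within slides.

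Genes of heme breakdown and of the oxidative-stress response are the classic targets of Bach1. Hmox1, heme oxygenase 1, stood at -1.64, -1.48 and -1.76 in WT and at -0.13, 0.79 and -0.54 in DD by its brighter probe, without overlap (1.66 ± 0.29), and a dimmer probe gave 0.53 ± 0.31 with overlap. Of 19 measured genes of heme breakdown and iron handling, 14 had a higher mean in DD, beside 53.7% of all genes, 4 were higher on all 3 slides and 0 lower on all 3. The median was 0.22, with -0.07 on slide 2, and 0.04 without slide 1. Slc11a1, a metal transporter of phagosomes, differed by 1.97 ± 0.58, with 0.40 on slide 1 and 3.09 on slide 3. Gclm, the modifier subunit of the enzyme that limits glutathione synthesis, stood at -1.56, -0.86 and -0.85 in WT and at 0.03, 1.60 and 0.81 in DD (1.91 ± 0.28). Of 18 measured glutathione genes, 15 had a higher mean in DD, beside 53.7% of all genes and 18 of 18 ribosomal protein genes, 7 were higher on all slides and 1 lower, and the median was 0.30, or 0.56 without slide 1. Gsta4, a glutathione transferase, differed by 1.56 ± 0.46 and the glutathione-degrading enzyme Chac1 by 0.85 ± 0.22. Of 20 thioredoxin and NADPH genes, 15 had a higher mean (53.7% of all genes), 8 were higher on all slides and 3 lower, and the median of 0.33 shrank to 0.03 after quantile normalization. Prdx1, an abundant peroxiredoxin, differed by 0.66 ± 0.24 and Nqo2, a quinone reductase, by 0.84 ± 0.24. Sqstm1, which encodes the autophagy receptor p62, stood at -1.14, 1.43 and 1.78 in WT and at -2.67, 0.59 and 0.48 in DD, lower on every slide (-1.22 ± 0.25). An unadjusted p under 0.05 with a higher mean was reached by 2 heme, 3 glutathione and 3 thioredoxin genes, and with a lower mean by 2 thioredoxin genes. The shares of all genes were 4.22% with a higher mean and 4.12% with a lower one. On all slides 18.01% of all genes were higher and 14.98% lower.

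Sequence upstream of these genes was searched for 3 letter patterns on both strands, since Bach proteins bind elements of this kind: TGACTCA, the core shared with AP-1; GCTGANTCA, the core with a flank of a Maf recognition element; and TGACNNNGC, the core of the antioxidant response element. A stretch can match more than 1 of them, as GCTGANTCA and TGACNNNGC share bases. RefSeq promoters (GRCm38.p6, 250 bases before to 50 after a start) of 52 of the 60 heme, glutathione and thioredoxin genes were at hand, and 9 of them held TGACTCA (17.3%), 6 GCTGANTCA (11.5%) and 15 TGACNNNGC (28.8%). Over the 13134 measured genes with a promoter, the shares were 5.01%, 1.34% and 16.0%. The lists were built around classic targets of Bach1, so their higher shares say nothing about the difference between DD and WT. The 60 genes also include some below the filter, among them Ggt1, which held TGACNNNGC. Among the 15 leading genes higher in DD, 11 had a promoter, and Morrbid was the 1 that held TGACTCA and GCTGANTCA, at a place that begins 1 base before the start, while 1, Hao1, held TGACNNNGC (9.09%). Among those lower in DD, 12 had a promoter, 0 held TGACTCA or GCTGANTCA, and 4 held TGACNNNGC (33.3%, beside 16.0% of measured genes). The promoters of Morrbid, Gclm and Prdx1 are shown as examples, 1 leading gene and 2 of the oxidative-stress lists, that were higher in DD on all 3 slides and hold a match, marked in capitals. No Hmox1 promoter is shown. The coordinates are chr2:128429302-128429601, minus strand, for Morrbid, chr3:122245307-122245606, plus strand, for Gclm, and chr4:116685349-116685648, plus strand, for Prdx1.
Morrbid: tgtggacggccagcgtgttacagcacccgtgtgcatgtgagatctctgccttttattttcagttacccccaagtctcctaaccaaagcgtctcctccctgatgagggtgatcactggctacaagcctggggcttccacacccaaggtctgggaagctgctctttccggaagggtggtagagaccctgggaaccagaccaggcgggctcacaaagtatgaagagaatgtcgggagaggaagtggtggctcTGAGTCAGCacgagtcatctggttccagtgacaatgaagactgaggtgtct
Gclm: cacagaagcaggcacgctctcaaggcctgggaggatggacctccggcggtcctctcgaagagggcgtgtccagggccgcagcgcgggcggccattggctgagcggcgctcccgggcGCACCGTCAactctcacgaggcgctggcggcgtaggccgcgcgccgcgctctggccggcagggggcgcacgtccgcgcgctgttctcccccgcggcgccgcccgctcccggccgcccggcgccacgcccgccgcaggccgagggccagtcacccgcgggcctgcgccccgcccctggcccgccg
Prdx1: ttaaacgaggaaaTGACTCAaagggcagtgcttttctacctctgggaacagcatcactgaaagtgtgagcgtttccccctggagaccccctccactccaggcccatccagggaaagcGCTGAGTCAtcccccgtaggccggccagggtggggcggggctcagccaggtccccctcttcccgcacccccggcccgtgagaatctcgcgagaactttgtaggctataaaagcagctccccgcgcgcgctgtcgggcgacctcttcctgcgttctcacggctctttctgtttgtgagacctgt
A match is a description of letters and shows no binding.

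Lymphoid regulators were examined next. Of 22 measured natural killer and innate lymphoid genes, 15 had a lower mean in DD, while 53.7% of all genes had a higher one. On all slides 9 were lower and 2 higher, beside 14.98% and 18.01% of all genes. The median of -0.66 lay below that of all genes on each slide (-0.51, -0.24 and -0.80). Without slide 3 the median was -0.28. Rora, a nuclear receptor needed for type 2 innate lymphoid cells, stood at -3.45, -4.11 and -3.32 in WT and at -4.87, -7.21 and -5.56 in DD (-2.25 ± 0.39, 2 DD pools above background). Tox, a nuclear factor of innate lymphoid and T-cell development, stood at 2.59, 2.62 and 2.27 in WT and at 1.53, 1.55 and 1.28 in DD (-1.04 ± 0.21). Zbtb16, which encodes PLZF, was lower by -1.58 ± 0.37 and Tcf7, which encodes TCF-1, by -1.04 ± 0.25. None of these 4 genes overlapped between genotypes. The receptor genes Il2rb (-0.88 ± 0.24) and Cxcr6 (-1.30 ± 0.36) were lower on all slides. Id2, an antagonist of E proteins that these lineages need, was higher on all slides (0.64 ± 0.23). Nkg7, an NK/ILC marker, was also higher on all slides, without overlap between genotypes (0.78 ± 0.29). In this list 7 of 22 genes had an unadjusted p under 0.05 with a lower mean and 1 with a higher one, beside 4.12% and 4.22% of all genes. The summed NK/ILC markers ranged from 21.0 to 59.7 in WT and from 35.7 to 36.7 in DD, and their part in the list was not tested.

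Some B-lineage regulators were lower in DD. Of 20 early B-lineage transcription factors, 7 had a higher and 13 a lower mean in DD, 0 were higher and 7 lower on all slides, and the median was -0.15. Over all genes, 53.7% had a higher mean, and 18.01% were higher and 14.98% lower on all slides. Pou2af1, the B-cell coactivator OCA-B, stood at 0.91, 0.07 and 1.04 in WT and at -0.94, -1.05 and -2.40 in DD (-2.14 ± 0.51). Spib, an Ets factor of B cells and plasmacytoid dendritic cells, was at 2.72, 0.64 and 1.57 in WT and at 1.64, -0.15 and -0.30 in DD (-1.24 ± 0.30). Irf4, a regulator of pre-B and plasma cells, was at -1.19, -1.27 and -1.18 in WT and at -2.33, -1.96 and -3.07 in DD (-1.24 ± 0.32). Pou2af1 and Irf4 did not overlap between genotypes, and Spib did. The founding B-lineage factors Ebf1 (-0.08 ± 0.31) and Pax5 (-0.14 ± 0.40) were lower on slide 1 and higher on slides 2 and 3. Of 19 pre-B receptor and recombination genes, 12 had a lower mean, 4 were lower on all slides and 1 higher. The recombinase gene Rag1 differed by -0.10 ± 0.41, Rag2 by -0.68 ± 0.29, and Dntt, the template-independent polymerase, by 0.30 ± 0.28. On slide 1 the median of the early B-lineage factors was -0.41, on slide 2 -0.06 and on slide 3 0.04.

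Receptors that guide progenitors to the thymus or out of the marrow were lower in several cases. Ccr9, the chemokine receptor of thymus-seeding cells and a CLP marker, stood at 1.82, 1.22 and 1.36 in WT and at 0.74, 0.24 and 0.34 in DD (-1.02 ± 0.21), without overlap. S1pr1, the sphingosine-phosphate receptor for egress, was lower by -1.25 ± 0.32. Of 16 homing and egress genes, 7 had a higher and 9 a lower mean, and 2 were higher and 4 lower on all slides. The list median was -0.06, near 0, with 0.21 on slide 2. In this list 4 genes had an unadjusted p under 0.05 with a lower mean and 0 with a higher one, beside 4.12% and 4.22% of all genes. Of 19 T-lineage genes, 4 were higher and 5 lower on all slides, beside 18.01% and 14.98% of all genes. Cd8a (-1.12 ± 0.31) and the Notch target Dtx1 (-0.86 ± 0.29) were lower and Notch1 higher (1.15 ± 0.37, but -0.09 in the fit with no block and without DD replicate 1).

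Surface markers of stem cells and multipotent progenitors split. Ly6a, which encodes the Sca-1 antigen used in the sort, stood at 1.81, 1.87 and 1.89 in WT and at 3.43, 3.76 and 4.30 in DD (1.97 ± 0.26). Slamf1, which encodes CD150 of stem cells, stood at -6.36, -6.09 and -6.37 in WT, with 2 pools above background, and at -5.06, -4.41 and -4.00 in DD (1.79 ± 0.30). Both separated the genotypes on every slide. Cd48 was higher by 0.74 ± 0.21, and Esam, an adhesion protein of stem cells, lower (-0.97 ± 0.30). Of 22 measured genes of this list, 6 were higher and 6 lower on all slides, beside 18.01% and 14.98% of all genes. In 5 of them all DD values lay above all WT values and in 1 below, beside 4.90% and 2.96% of all genes. The growth-factor receptors of the gate did not separate: Flt3 differed by 0.18 ± 0.22 (-0.15 after quantile normalization), Il7r by -0.26 ± 0.23 and Kit by -0.38 ± 0.36.

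Myeloid genes were higher in part. Of 16 measured primary-granule genes, which mark granulocyte-monocyte progenitors, 14 had a higher mean in DD, 7 were higher on all slides and 0 lower, and the median was 0.61. Among all genes, 53.7% had a higher mean, and 18.01% were higher and 14.98% lower on all slides. All 18 ribosomal protein genes had a higher mean, 7 of them on all slides, with a median of 0.35. Ctsg, cathepsin G, stood at 2.06, 3.36 and 2.86 in WT and at 3.85, 4.97 and 3.51 in DD (1.35 ± 0.32). Elane, neutrophil elastase, stood at 0.49, 0.56 and 0.86 in WT and at 2.80, 1.72 and 1.11 in DD (1.24 ± 0.45). Prtn3, proteinase 3, was at -2.88, -2.24 and -1.87 in WT and at -2.80, 1.15 and 0.01 in DD (1.78 ± 0.68). Ctsg and Elane did not overlap between genotypes, and Prtn3 did. Mpo, myeloperoxidase, differed by -0.04 ± 0.23. In this list 6 of 16 genes had 3 DD values above all WT values, beside 4.90% of all genes. Secondary and tertiary granule genes, made later in neutrophil maturation, had medians of 0.59, 0.87 and -2.47 on slides 1, 2 and 3. Their level was high in WT replicate 3 and DD replicate 2, the pools with the highest S100a8. The primary-granule median was 0.48, 0.78 and 0.35 on the 3 slides, and the part of granulocyte RNA in it was not tested. Clec4d, a C-type lectin of myeloid cells, stood at -2.14, -2.99 and -2.77 in WT and at -0.71, -0.69 and -0.72 in DD (1.93 ± 0.27). Lilrb4a, an inhibitory receptor, was higher by 1.20 ± 0.22. The C/EBP factors that drive myeloid fate did not share this: of 7 measured, 4 had a higher mean, 0 were higher and 2 lower on all slides, and Cebpa differed by -0.84 ± 0.33. Other myeloid lists differed among themselves. Of 18 Fc, LILR and SIRP receptor genes, 6 were higher and 0 lower on all slides. For 17 monocyte and macrophage effectors the counts were 1 and 5. For 17 myeloid cytokine receptors they were 2 and 3, and for 22 myeloid transcription regulators 3 and 3.

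Type I interferon response genes were mostly higher in DD. Of 21 measured, 17 had a higher mean in DD, beside 53.7% of all genes and 18 of 18 ribosomal protein genes. On all slides 12 were higher and 1 lower, beside 18.01% and 14.98% of all genes. The median was 0.54, against 0.04 for all genes and 0.35 for ribosomal protein genes. The differences were small: Ifit3 differed by 0.79 ± 0.23, Oas2 by 0.78 ± 0.27 and Isg15, a ubiquitin-like protein, by 0.64 ± 0.23. In this list 4 genes had an unadjusted p under 0.05 with a higher mean and 0 with a lower one, beside 4.22% and 4.12% of all genes. Genes for MHC class II presentation were mixed. H2-Eb1 stood at 1.85, 2.36 and 2.12 in WT and at 3.20, 3.41 and 3.20 in DD (1.16 ± 0.22), without overlap, H2-Ab1 was higher by 0.81 ± 0.21, Cd74, the invariant chain, by 0.69 ± 0.23, and Ciita, the regulator of the class, by 0.72 ± 0.27. H2-Aa differed by 0.65 ± 0.57 with -0.92 on slide 1, H2-DMa by 0.11 ± 0.60 and H2-DMb1 by -0.07 ± 0.22. Of 19 dendritic-cell and class II genes, 15 had a higher mean, beside 53.7% of all genes, and 5 were higher on all slides. The list median was 0.15, with -0.18 on slide 1, and 0.01 after quantile normalization. The summed dendritic-cell markers were 101.1 to 145.9 in WT and 103.0 to 142.8 in DD.

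Metabolic and cell-cycle genes were also examined. Of 19 glycolysis and hypoxia genes, 10 were higher on all slides and 1 lower, beside 18.01% and 14.98% of all genes. Aldoa, an aldolase, differed by 0.82 ± 0.22, Ankrd37 by 1.05 ± 0.22, and Hif1a, the hypoxia factor itself, was lower (-1.06 ± 0.22). Of 25 genes of DNA replication and mitosis, 23 had a higher mean, beside 53.7% of all genes, with a median of 0.18 that was -0.01 after quantile normalization, and Aurkb, a mitotic kinase, differed by 1.00 ± 0.31. In Wnt and BMP signalling, Rspo1 stood beside Id1, a BMP target (1.81 ± 0.25), and Rnf43, which removes Wnt receptors (-2.02 ± 0.63, 2 WT pools and 1 DD pool above background), while the median of the 25 measured genes was 0.05. In the Bcl2 family, Bcl2l11, the proapoptotic gene that Morrbid is known to restrain, differed by -0.01 ± 0.57, with -1.18 on slide 1 and 1.47 on slide 3, and Bmf was lower (-0.96 ± 0.28).

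**Figure D4:**
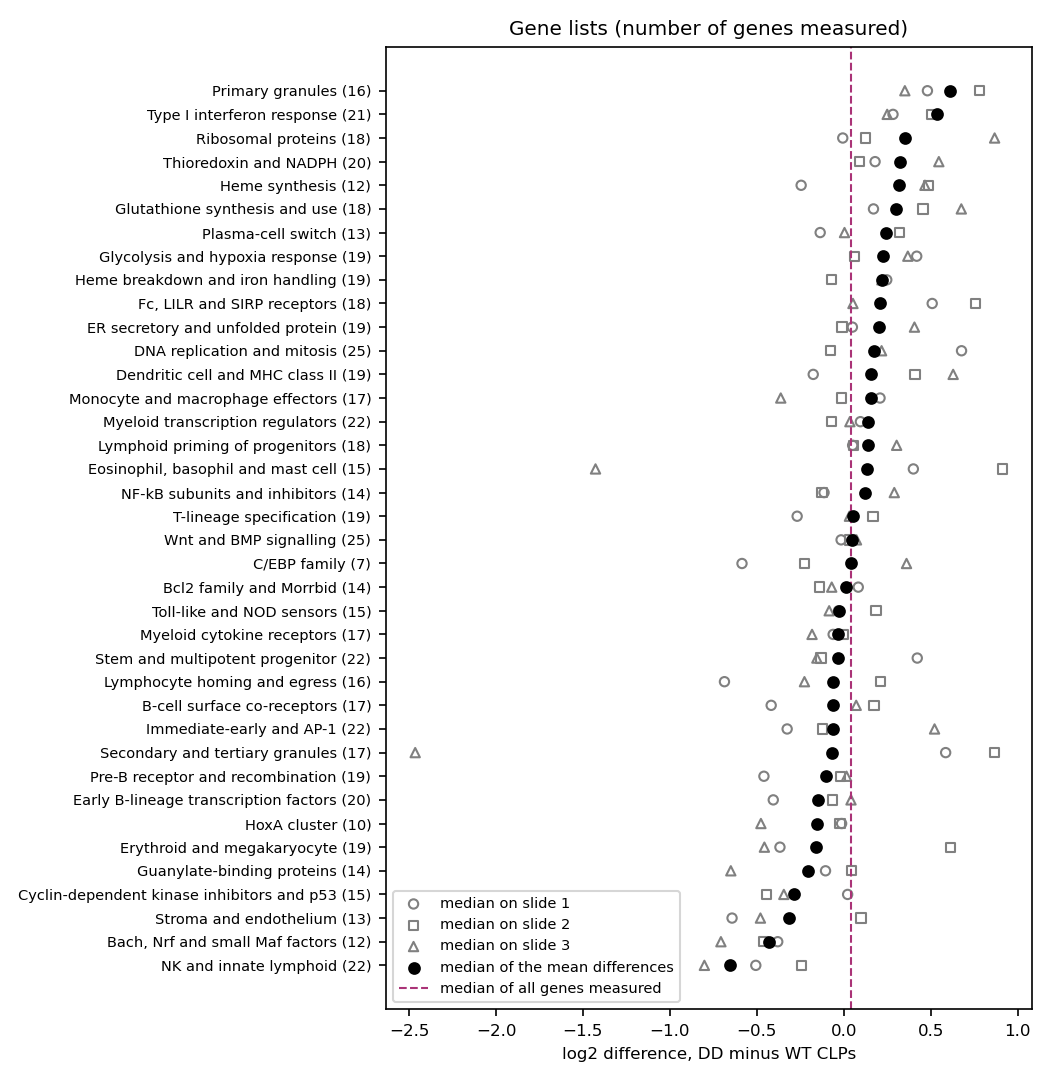
Median log2 difference between DD and WT CLPs for 38 gene lists (black: mean over slides; open symbols: each slide), with the number of genes measured and the median of all genes as a dashed line at 0.04. Primary granules (0.61) and the type I interferon response (0.54) have the highest medians and the natural killer and innate lymphoid list (-0.66) the lowest, and slide 3 stands far from slides 1 and 2 for secondary granules.

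The series also holds MPPs of WT mice that were infected with a retrovirus carrying Bach2 and GFP or GFP alone, cultured under multi-lineage conditions and sorted for GFP, 3 arrays each. These arrays share none with the CLPs, and Bach2 is added in them where the DD CLPs lack it together with Bach1. Of 39600 probes measured in both, 212 passed as lower with the Bach2 vector (0.535%) and 359 as higher (0.907%; limma over 12 arrays, adjusted p under 0.05). Of the 212 probes lower with the vector, 139 had a higher mean in DD CLPs (65.6%) and 86 were higher on all 3 slides (40.6%), against 50.6% and 16.2% of all 39600 probes. Without slide 1, 2 or 3, 131, 134 and 156 of the 212 were higher in DD. Of the 359 probes higher with the vector, 155 had a higher mean in DD (43.2%) and 110 were lower on all slides (30.6%), against 17.4% of all probes. Without slide 1, 2 or 3, 182, 138 and 151 of the 359 had a higher mean in DD, and the share without slide 1 (50.7%) was near the 53.5% of all probes. The brighter Bach2 probe was higher by 1.15 ± 0.59 with the vector (adjusted p 0.719). The test of the difference between the comparisons, DD minus WT in CLPs against Bach2 vector minus control in MPPs, called 241 of 39600 probes (0.609%; 101 without the replicate block).

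Among the probes called in that test and by the vector, 42 were higher in DD on all slides by at least 2-fold and lower with Bach2, and 30 were the reverse. Both are counts out of the 39600 probes measured in both experiments. The CLP rule alone was met by 2.17% of the probes tested in CLPs as higher and by 3.45% as lower. The vector alone called 0.535% of the 39600 as lower and 0.907% as higher. Whether the overlap exceeds what these shares give was not tested. The 42 and 30 probes carry 31 and 17 gene symbols, and the genes named next were picked from them after their values were seen. A large vector difference alone can pass the test of the difference, so its adjusted p does not measure the CLP difference. On the CLP side of the same limma fit only Rspo1 passed (adjusted p 0.0284). There the adjusted p was 0.0622 for Morrbid, 0.0754 for Adam8, 0.0956 for Gclm and 0.1985 for Irf4. Rspo1 stood at -2.57, -3.27 and -4.58 in control MPPs and at -5.01, -5.43 and -6.85 with Bach2, 2 of the latter above background (-2.29 ± 0.28), opposite to its 4.54 in CLPs (adjusted p of the difference 0.0046). Morrbid stood at 0.93, 0.31 and 0.25 in control and at -1.32, -2.87 and -2.88 with Bach2 (-2.85 ± 0.34; 0.0066). Both were lower with the vector in every pool. Gclm stood at 3.07, 3.83 and 3.58 in control and at -0.25, 0.53 and 0.57 with Bach2 (-3.21 ± 0.23; 0.0050). Adam8 stood at 1.99, 1.33 and 1.32 in control and at -1.48, -2.94 and -2.09 with Bach2 (-3.72 ± 0.26; 0.0046). Clec4d (-3.91 ± 0.33 with Bach2), Lilrb4a (-2.75 ± 0.21), Fkbp11 (-1.58 ± 0.25), Ly96 (-1.25 ± 0.21), Sv2c (-3.45 ± 0.59) and Gsta4 (-2.29 ± 0.38) were lower with Bach2 too. The chr2, chr5 and chr6 regions without a gene name were among the 42, the last at chr6:31267612-31293337 (mm9), with 2.99 ± 0.25 in CLPs and -1.92 ± 0.22 with Bach2. A chr2 probe stood at 0.92, 0.19 and 0.11 in control and at -1.46, -2.81 and -2.85 with Bach2. These values are close to those of Morrbid, and the chr2 probes may read the same transcript. In the other direction, Irf4 stood at -1.28, -1.96 and -0.50 in control and at 1.78, 1.23 and 1.95 with Bach2 (2.90 ± 0.28), against -1.24 in CLPs (adjusted p of the difference 0.0140). Tcf7 (1.41 ± 0.24), Emid1 (2.01 ± 0.25) and Trib2, a pseudokinase (2.88 ± 0.42, by 1 of its 2 probes), were higher with Bach2 as well. Hmox1 was not among them: it differed by -1.08 ± 0.33 with Bach2 (adjusted p 0.28).

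**Figure D5:**
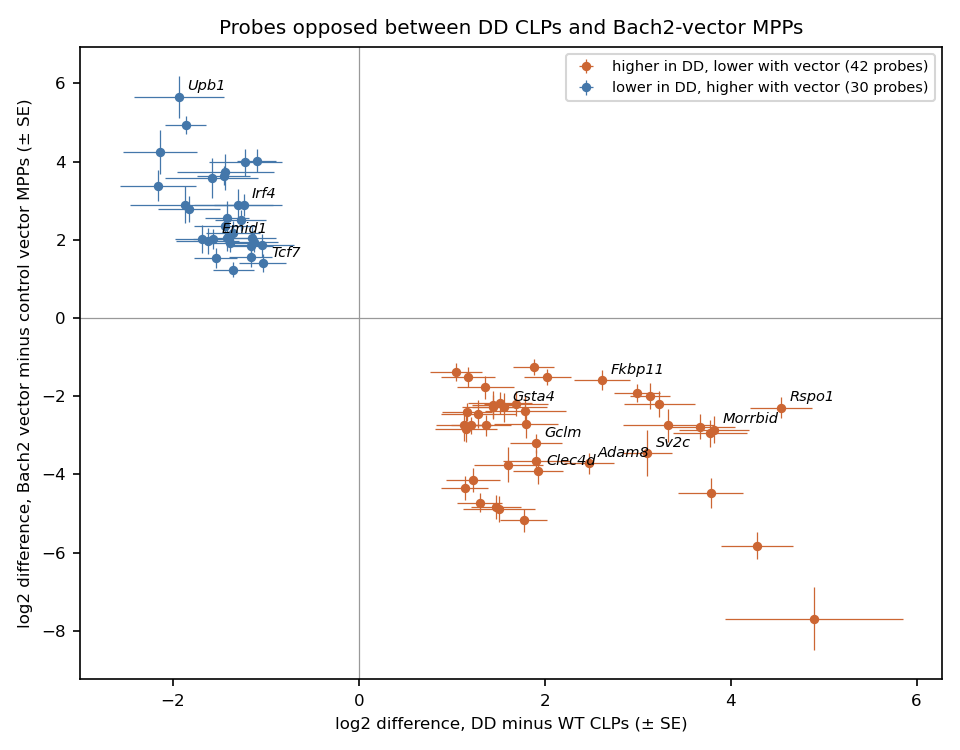
Log2 difference in DD against WT CLPs (horizontal) and in Bach2-vector against control-vector MPPs (vertical), with SE bars, for the 42 probes higher in DD and lower with Bach2 (orange) and the 30 probes of the reverse pattern (blue). Members were chosen to lie in these quadrants, so the plot shows sizes: Rspo1 lies at 4.54 and -2.29, Irf4 at -1.24 and 2.90.

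The series further compares follicular B cells of Bach2KO and WT mice cultured with anti-IgM, 3 arrays each and none shared with the CLPs. These arrays were dimmer, with 50.9% to 58.8% of spots well above background, against 66.8% to 81.5% on the CLP arrays. Of 29577 probes measured in both, 609 passed as higher in Bach2KO B cells (2.06%) and 281 as lower (0.950%). Of the 609, 374 had a higher mean in DD CLPs (61.4%) and 181 were higher on all slides (29.7%), against 50.8% and 16.7% of all 29577 probes. Of the 281, 143 had a higher mean in DD (50.9%), near the share of all probes. On all slides 59 of the 281 were higher (21.0%) and 68 lower (24.2%), against 16.7% and 17.9% of all probes. Genes picked after their values were seen were higher in both knockouts: Ly96 by 1.88 ± 0.19 in CLPs and 1.99 ± 0.19 in B cells, Mt1 by 2.79 ± 0.36 and 3.20 ± 0.36, H2-Eb1 by 1.16 ± 0.24 and 1.25 ± 0.24, Clec4d by 1.93 ± 0.33 and 3.43 ± 0.33, and Ly6a by 1.97 ± 0.23 and 3.17 ± 0.23. Standard errors here come from 1 fit over both experiments. The test of the difference between the knockouts called 226 probes (0.764%; 68 without the replicate block) and none of these 5 genes.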

How the data were processed

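RNA of sorted CLPs was hybridised to single-colour Agilent mouse arrays. The deposited values are spot intensities (processed signal, background-subtracted by the scanner software), written by Agilent Feature Extraction 10.7.3.1 per the file headers, while the submitters' processing notes name version 9.1. Each array carried 62976 spots, of which 3671 were controls and were left out. Spots of a probe were averaged without outlier-marked spots, and log2 intensity was taken relative to the array's 75th percentile. Probes well above background on at least 3 of the 6 CLP arrays were kept, and symbols were matched through RefSeq for 26407 of 55681 probes.

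Differences were fitted with limma 3.58.1 (lmFit and eBayes, R 4.3.3) with the replicate number, which is the slide, as a block, and p-values were adjusted by Benjamini-Hochberg over all probes kept. Same-numbered WT and DD arrays deviated together from their group means, with correlations of 0.47, 0.42 and 0.23, against -0.37 to 0.05 for other numbers. The deviations of 3 arrays from their mean sum to 0, so positive values for the same number push the others down. The numbers also name the slides. The scripts were tested on simulated data. Comparisons with MPPs and follicular B cells used 1 limma fit over 12 arrays each, with replicate within experiment as a block. In the MPP vector groups and the follicular groups, replicates 2 and 3 lay on the same slide, so the block there is the replicate number and not the slide. Whether same-numbered arrays of those groups deviated together was not tested. Counts, lists and figures used Python 3.11.15, pandas 2.3.3, numpy 2.4.6 and matplotlib 3.10.9.

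The arrays, gene lists and marker lists were chosen with earlier results of these data known. Named genes are Bach1, Bach2, Rspo1, the 15 genes with the smallest unadjusted p in each direction that had a symbol, at least a 2-fold difference and the same direction on all 3 slides, and for each list up to 5 members with the smallest unadjusted p, with marker genes. Genes outside this rule, among them the growth-factor receptors, the early B-lineage factors named for small differences, and regions without a symbol, were named after their values were seen. Alternatives were no block, quantile normalization, median scaling, normexp background, other filters, a variance trend, 1 probe per gene, leaving out slides or arrays, and the deposited series values. Normexp used the median spot signal (offset 50), since the mean signal is not used here. The number of arrays limits the precision. Some items are not reported here.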

Additional observations from a re-analysis of the deposited data

Results flagged for a closer look

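The difference between the DD and WT CLPs was tested against that between Bach2KO and WT follicular B cells (limma over 12 arrays, Benjamini-Hochberg adjusted), and 13 named genes differed between these experiments. The experiments differ in cell type, stimulation, signal level of the arrays and in whether Bach1 is missing too, which cannot be told apart. The 75th percentile ran from 97.3 to 357.5 on the B-cell arrays and from 2857.6 to 5127.1 on the CLP arrays. Detection on the B-cell arrays is not given for the genes named here. Il2rb was lower in DD CLPs (-0.88) and higher in Bach2KO B cells (4.62), a gap of -5.50 (adjusted p 0.0023). Ccr9 gave -1.02 in CLPs and 3.88 in B cells, a gap of -4.90 (0.0025), and Maf gave -2.03 and 3.97, a gap of -6.00 (0.0231). Hmox1 was higher in both, by 1.66 in CLPs and 6.04 in B cells, a gap of -4.37 (0.0037), as were Lilrb4a, with 1.20 and 5.62 and a gap of -4.42 (0.0159), and Isg15, with 0.64 and 2.36 and a gap of -1.72 (0.0436). St8sia6 was lower in CLPs (-4.71, with 1 of 3 DD pools above background) with 0.32 in B cells, a gap of -5.03 (0.0181). Asprv1 gave -1.67 and 0.80, a gap of -2.47 (0.0386), Sqstm1 -1.22 and 0.81, a gap of -2.03 (0.0317), and Nos3 -1.69 and 0.03, a gap of -1.7150 (0.0391). In the other direction, Ankrd37 gave 1.05 and -1.67, a gap of 2.72 (0.0129), and Id1 1.81 and -0.82, a gap of 2.63 (0.0250). For Otud7b the gap was 2.17.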

How the results depend on the processing

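No probe passed an adjusted p of 0.05 with or without the replicate block, after quantile normalization, median scaling, normexp, other filters, a variance trend, from the series value table, or with any slide or array left out. Calls appeared with 1 probe per gene and no replicate block (1, Rspo1 at 4.54), and with the spread shared with MPPs (1) or follicular B cells (35), all 3 chosen after seeing the data. Probes at an unadjusted p under 0.05 numbered 667 higher and 809 lower without the replicate block, 758 and 728 with 1 probe per gene, and 336 and 287 with both changes. With a slide left out they ranged from 679 to 3925 higher and from 1060 to 3653 lower, both highest without slide 1. With no replicate block and 1 array left out, 1594 were higher and 2039 lower without DD replicate 1 (lowest adjusted p 0.0694, limma), 1213 and 1271 without WT replicate 1, 562 and 845 without DD replicate 2, 632 and 573 without DD replicate 3, 401 and 592 without WT replicate 2, and 247 and 499 without WT replicate 3. Without the replicate block the tests of a difference between experiments called 101 probes against MPPs and 68 against B cells. Quantile normalization moved the thioredoxin median to 0.034 and the interferon median to 0.35. With a slide left out, list medians ranged from 0.042 to 0.37 for heme breakdown, 0.196 to 0.56 for glutathione, -0.60 to -0.28 for natural killer and innate lymphoid genes, and -0.40 to 0.10 for T-lineage genes. With no block and 1 array left out, the interferon median fell to 0.38 without DD replicate 2, the innate lymphoid median was -0.27 without DD replicate 3, and the T-lineage median was -0.245 without DD replicate 2 and -0.262 without WT replicate 3. The causes were not tested.

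Differences of 14 probes changed sign, most of them near 0. With a slide left out, the range was -0.75 to 0.577 for Bcl2l11, -0.081 to 0.47 for the brighter Cacna1d probe, -0.27 to 0.253 for Ebf1, -0.15 to 0.097 for Mpo, -0.15 to 0.0016 for Nfe2l2, -0.47 to 0.36 for Pax5, -0.60 to 0.27 for Rag1, -0.38 to 0.33 for the brightest Rfx3 probe and -0.63 to 1.20 for the brighter Slc17a5 probe. With no block and 1 array left out, the turned values were 0.60 and 0.219 for Bcl2l11, -0.041 for Cacna1d, 0.025 and 0.44 for Ebf1, 0.037 for Il7r, 0.038 and 0.022 for Mpo, 0.14 and 0.10 for Nfe2l2, -0.088 for Notch1 (without DD replicate 1), 0.241 for Pax5, 0.27 and 0.030 for Rag1, 0.053 and 0.177 for Rfx3, and -0.065, -0.432 and -0.037 for Slc17a5. Bcl2l11 was 0.062 with median scaling, 0.096 with normexp and 0.033 after quantile normalization. Mpo was 0.033 with median scaling and Pax5 0.037 with normexp. After quantile normalization Cd34 was -0.012, Dntt -0.029 and Flt3 -0.15.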
